A study of Mus musculus with 118 samples.

Results

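The area comparison of layer 5 (L5) somatostatin-positive (SOM+) interneurons rested on single cells of the mouse neocortex, 16 from primary somatosensory cortex (S1) and 17 from primary visual cortex (V1). These 33 cells belong to a series of 55 S1 and 63 V1 cells. Region and layer were taken from the sample labels, which assign 16 cells to S1 L5 and 19 to V1 L5. A cell was kept if it had at least 1500 genes with a read, no more Slc17a7 than Gad1 plus Gad2 reads, and at least 1 Sst read. In V1, 1 L5 cell was left out for too few genes and 1 for its Slc17a7 reads, and in S1 all L5 cells passed. Both groups came from adult SOM-Cre/Ai9 mice with no treatment named. In these mice Cre is driven by the somatostatin gene and switches on the red reporter tdTomato for good, so labelled cells express Sst or did so earlier, and off-target labelling of fast-spiking cells is known for the line. Cells were recorded in brain slices with a patch pipette, and the cytosol drawn into the pipette was turned into cDNA (Patch-seq).

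Somatostatin interneurons are GABAergic cells that mostly contact the dendrites of pyramidal neurons. In layer 5 they include Martinotti cells, whose axon ascends to layer 1, and cells with an axon that stays in the deeper layers. They inhibit the fine dendrites where inputs from distant areas arrive, and their own excitability is set by ion channels and by the GABA and glutamate receptors they carry.

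The labels name neither the animal nor the litter, so the cells of each area were treated as 1 sample, and no p-value or standard error was computed from cells. The L5 cells fell on 4 dates. There were 3 S1 and 5 V1 cells on 26 June, 5 and 3 on 27 June, 5 and 4 on 3 July, and 3 and 5 on 5 July. Levels are reads scaled to the total of the cell (CPM), and differences are on the scale log2(CPM + 1). A difference is the mean over the S1 cells minus the mean over the V1 cells, and a positive value means higher in S1. The same difference was taken within each of the 4 dates, and its SD over the dates is given as the spread. Dates may share a mouse.

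Total counts had a median of 1119171 in S1 and of 1066008 in V1. Their range was 128379 to 2535406 in the S1 cells and 97904 to 2368268 in the V1 cells. Detected genes had a median of 7571.5 in S1 and 6765 in V1. The smallest numbers, 1978 genes on 26 June and 2951 genes on 3 July, both belonged to V1 cells. A gene with no read in a cell could still be present at up to 3 counts, which is 1.18 to 23.4 CPM in the S1 cells and 1.27 to 30.6 CPM in the V1 cells. Intervals below are 95% and cover counting error only. Those of shares take the cells as independent draws, and those of pooled levels take the reads as independent. The protocol has no molecular identifiers, so reads can be copies of 1 molecule. Neither kind covers the spread between mice, and the pooled intervals do not cover the spread between cells.

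Sst itself marked every cell by the rule. Its level in S1 was 84.5 to 3448 CPM (median 1322 CPM), and in V1 it was 36.9 to 11525 CPM (median 1739 CPM). The ranges overlapped almost entirely, and the difference was -0.51 on the log2(CPM + 1) scale, with 0.06 on 26 June, -0.96 on 27 June, -0.90 on 3 July and -0.99 on 5 July. On the pooled reads the log2 ratio was -1.08, and the highest V1 cell, from 27 June, held 11525 CPM. The 300 bases around the start of 3 of the 4 marker genes are shown because these genes define the labelled population or separate the areas most. They run from 250 bases before to 50 bases after the start, 5′ to 3′ on the gene's strand, from RefSeq on GRCm38.p6, and capitals mark matches to the searched motifs.

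Sst, chr16:23890795-23891094, minus strand: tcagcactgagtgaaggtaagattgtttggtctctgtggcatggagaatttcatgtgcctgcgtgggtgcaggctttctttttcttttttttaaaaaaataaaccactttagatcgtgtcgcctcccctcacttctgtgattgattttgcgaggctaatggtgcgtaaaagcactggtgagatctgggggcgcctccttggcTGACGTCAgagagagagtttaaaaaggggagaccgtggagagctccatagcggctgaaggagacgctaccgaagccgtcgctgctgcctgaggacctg
Igf1, chr10:87860861-87861160, plus strand: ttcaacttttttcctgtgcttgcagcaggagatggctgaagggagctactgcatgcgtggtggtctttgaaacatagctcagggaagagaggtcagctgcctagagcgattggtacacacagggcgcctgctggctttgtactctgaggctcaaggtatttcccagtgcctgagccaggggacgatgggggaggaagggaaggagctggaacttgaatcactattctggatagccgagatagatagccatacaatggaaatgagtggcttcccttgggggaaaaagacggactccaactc
Rab15, chr12:76822475-76822774, minus strand: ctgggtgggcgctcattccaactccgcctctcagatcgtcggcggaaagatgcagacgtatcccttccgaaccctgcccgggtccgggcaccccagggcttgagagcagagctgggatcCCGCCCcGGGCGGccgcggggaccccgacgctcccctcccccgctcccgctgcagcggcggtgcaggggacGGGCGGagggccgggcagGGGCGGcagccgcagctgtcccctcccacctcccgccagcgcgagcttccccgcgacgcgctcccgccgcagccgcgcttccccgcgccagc

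The motifs searched, on both strands, were the cyclic AMP response element TGACGTCA, the GC box GGGCGG and the TATA box TATAAA. The Sst window held 1 cyclic AMP response element, a palindrome that begins 48 bases before the start, and 1.79% of all 32851 windows in the RefSeq table hold one. The Rab15 window, the first of 4 listed for the gene, held 4 GC boxes, 3 of them on the strand of the gene and 1 on the other, beside 35.7% of all windows with at least 1. A TATA box is in 13.6% of all windows. In the Igf1 window no match to these letters was found. Gabrd had no entry.

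The remaining markers of GABAergic and somatostatin identity were present in both areas. All 11 genes of this list passed the filter on low counts, which asked for at least 32 counts in at least 10 of the 33 cells. Gad1, one of the GABA-synthesizing enzymes, was found in all cells of both areas, with a median of 1368 CPM in S1 and 1597 CPM in V1 and a difference of -0.064. Lhx6, the transcription factor of interneurons born in the medial ganglionic eminence, was found in 14 cells of each area. Of 8 markers of excitatory neurons 2 passed the filter and 0 were called, and their summed level had a median of 504 CPM in S1 and 480 CPM in V1. Slc17a7, the vesicular glutamate transporter that defines cortical excitatory cells, had reads in 3 S1 and 3 V1 cells, at no more than 112.4 CPM. Reads of Sst in every cell and few Slc17a7 reads beside Gad1 and Gad2 were set by the rule, so neither checks the label. Lhx6 marks interneurons of the medial ganglionic eminence in general, so its reads cannot tell SOM+ cells from off-target fast-spiking cells.

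Across the 6402 genes that passed the filter, the median difference was 0.24 toward S1. It was 0.28 on 26 June, 0.03 on 27 June, 0.36 on 3 July and -0.19 on 5 July. A gene is called here if its difference reached 1 on the log2 scale, a 2-fold difference, with the same sign in each of the 4 dates. Of the genes that passed the filter, 8.54% (547 genes) were called toward S1 and 4.15% (266 genes) toward V1. This excess toward S1 depended on 2 V1 cells. Without the V1 cells under 3000 detected genes the median was -0.072, and 355 genes were called toward S1 and 488 toward V1. Of these, 312 and 241 were among the 547 and 266. With every difference centred on the median gene, 443 genes were called toward S1 and 380 toward V1. Every share of called members below is read against 8.54% and 4.15%.

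Gabrd gave the largest difference of all genes with 1 sign in every date. It encodes the delta subunit of the GABA-A receptor, which sits outside synapses and carries tonic inhibition. In S1 its median was 220.0 CPM and its range 0 to 641 CPM, and in V1 its median was 0 and its range 0 to 183.9 CPM. Reads were found in 15 of 16 S1 cells (93.8%, Clopper-Pearson interval 69.8 to 99.8%) and in 6 of 17 V1 cells (35.3%, 14.2 to 61.7%). The groups overlapped, since 1 S1 cell had no read and 3 V1 cells held 67.0, 87.7 and 183.9 CPM.

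Within dates the Gabrd difference was 4.81, 4.91, 4.11 and 4.03, and over all cells 4.78 ± 0.46 (SD over 4 dates). Its SD over dates was the smallest among the 10 largest differences toward S1. The pooled reads gave a Poisson interval of 239 to 253 CPM in S1 and of 15.2 to 18.9 CPM in V1. With each cell thinned to 250000 reads, 13 of 15 S1 and 4 of 15 V1 cells had a Gabrd read. Gabrd lies on chr4:155384980-155398112, minus strand, on GRCm38, and its exons share no base with another annotated gene.

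**Figure D1:**
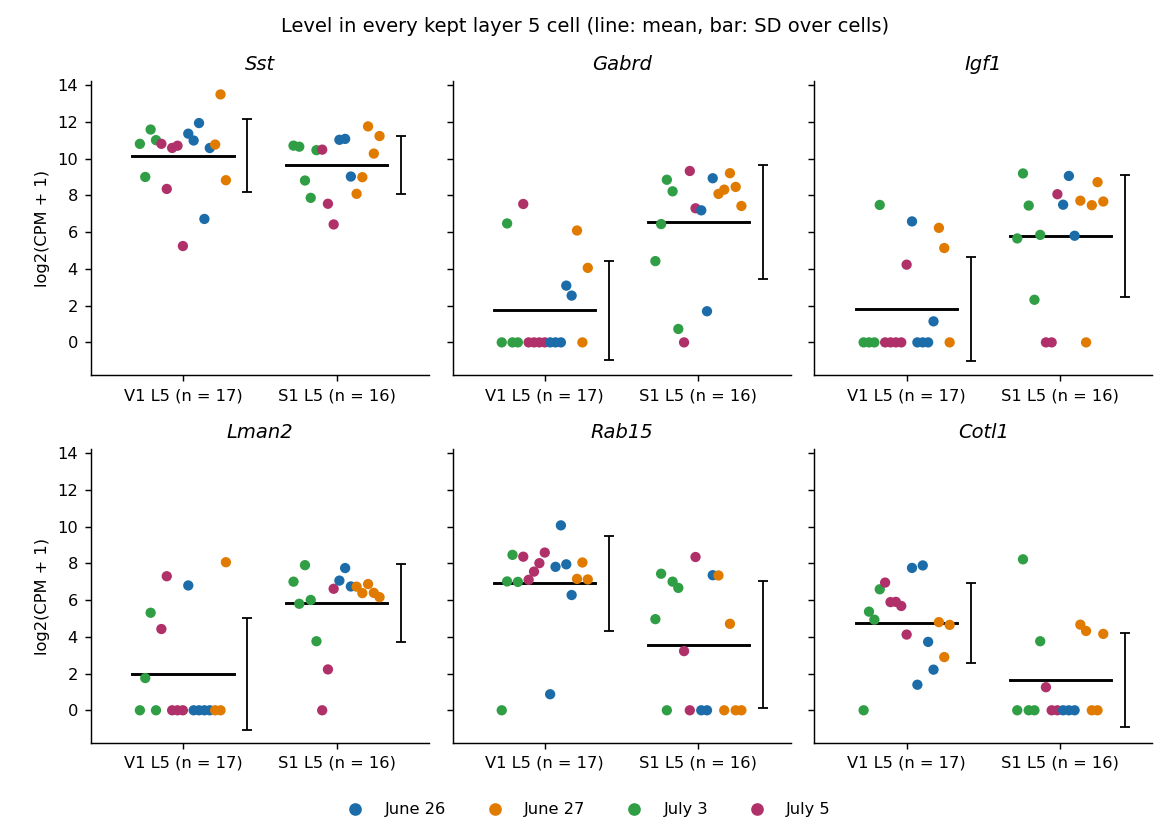
Level of 6 genes in each kept L5 cell, as log2(CPM + 1), with V1 on the left and S1 on the right of each panel. Points are cells coloured by date, lines are means and bars the SD over cells. Sst overlaps between areas, 15 of 16 S1 and 6 of 17 V1 cells lie above 0 for Gabrd, and 9 of 16 S1 and 16 of 17 V1 cells lie above 0 for Rab15.

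Igf1, the gene of insulin-like growth factor 1, a secreted growth factor, came next. Its median was 174.4 CPM in S1 and 0 in V1, and its range 0 to 584 CPM in S1 and 0 to 177.4 CPM in V1. Reads were found in 13 of 16 S1 cells (81.2%, 54.3 to 96.0%) and in 6 of 17 V1 cells (35.3%, 14.2 to 61.7%). The highest V1 cell lay close to the S1 median, while 3 S1 cells had no read. The difference was 3.97 ± 1.82, with 5.90, 2.52, 4.22 and 1.84 in the 4 dates.

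Gabrd and Igf1 were read together in 13 of 16 S1 cells, and every S1 cell with Igf1 also had Gabrd. Since Gabrd was read in 15 of 16 S1 cells, this overlap nearly follows from its share and shows no link. In V1 they were read together in 2 of 17 cells, while 4 cells had Gabrd alone and 4 had Igf1 alone. Thinned to equal reads, Igf1 was found in 11 of 15 S1 and 6 of 15 V1 cells.

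The next genes toward S1 included Lman2, a lectin that carries glycoproteins between the endoplasmic reticulum and the Golgi. It ranged from 0 to 237 CPM in S1 and from 0 to 265 CPM in V1, with medians of 89.8 CPM and 0. It was found in 15 of 16 S1 cells and in 6 of 17 V1 cells, and its difference was 5.82, 3.82, 4.33 and 0.60 in the dates and 3.86 over all cells. Cd47, the surface protein that keeps phagocytes from engulfing a cell, was found in all 16 S1 cells, at 53.2 to 905 CPM, and in 11 of 17 V1 cells, at up to 768 CPM. It differed by 3.45 ± 1.79, and by 2.81 without 1 sign in the dates when the 2 V1 cells of few genes were left out. The ranges overlapped for both genes, and the cells without a read were nearly all from V1.

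Spon1 encodes F-spondin, a secreted matrix protein that guides axons. It was the most abundant of the 10 genes in S1, with a median of 958 CPM against 0.68 CPM in V1, although the highest cell held 2181 CPM in S1 and 2286 CPM in V1. Its difference was 3.50 ± 0.95. Agrn, the gene of agrin, a heparan sulfate proteoglycan that clusters receptors at the neuromuscular junction, had medians of 98.5 CPM and 0 and differed by 3.37 ± 2.04. Elfn2, a postsynaptic leucine-rich repeat protein that binds metabotropic glutamate receptors across the synapse, was found in 15 of 16 S1 cells and in 8 of 17 V1 cells and differed by 3.50 ± 2.25. All 3 had cells of both areas at 0.

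The other 3 genes act inside the cell. Rgs9, which speeds the shut-off of Gi proteins, had medians of 82.7 CPM in S1 and 0 in V1 and differed by 3.44 ± 2.24. Sirt7, a nuclear deacylase of the sirtuin family, was found in all 16 S1 cells, at 1.61 to 874 CPM, and in 7 of 17 V1 cells, at up to 199.7 CPM. It differed by 3.53 ± 0.69, with values from 2.68 to 4.36 in the dates. AI854517, a noncoding transcript that GENCODE names Mir9-3hg, the host gene of a copy of microRNA miR-9, was found in all 16 S1 cells and in 8 of 17 V1 cells and differed by 3.71 ± 1.87. For both genes no S1 cell was at 0, and the ranges of the areas overlapped.

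Rab15 gave the largest difference toward V1. It is a small GTPase of early and recycling endosomes. In V1 its median was 185.8 CPM and its range 0 to 1068 CPM, and in S1 its median was 16.7 CPM and its range 0 to 323 CPM. Reads were found in 16 of 17 V1 cells (94.1%, 71.3 to 99.9%) and in 9 of 16 S1 cells (56.2%, 29.9 to 80.2%). The V1 cell without Rab15 was the one from 3 July with 2951 genes, and the highest was the one from 26 June with 1978 genes. Without these cells the difference was -3.59.

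The Rab15 difference was -3.34 ± 2.05, with -4.14, -5.03, -0.40 and -4.06 in the 4 dates. The value of 3 July rested on the V1 cell with no read, and without it was -2.28. The pooled levels were 85.9 CPM in S1 and 214 CPM in V1, a log2 ratio of -1.30.

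Cotl1, a coactosin-like protein that binds actin filaments, was read in 16 of 17 V1 cells and in 6 of 16 S1 cells. Its median was 29.5 CPM in V1 and 0 in S1, and its range 0 to 235 CPM in V1 and 0 to 296 CPM in S1. The highest value of all belonged to an S1 cell of 3 July with 128379 reads, and the other S1 cells stayed at or below 24.3 CPM. The difference was -3.10 ± 1.92, and on pooled reads the level was 7.58 CPM in S1 against 43.9 CPM in V1. Rab15 and Cotl1 were read together in 16 of 17 V1 cells and in 4 of 16 S1 cells. In V1 each was read in 16 of 17 cells, so the overlap there nearly follows from the shares.

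Sod2 and Sesn2 also stood toward V1. Sod2, the superoxide dismutase of mitochondria, was found in 17 of 17 V1 cells, at 26.8 to 508 CPM, and in 12 of 16 S1 cells, at up to 321 CPM. Its difference was -2.59 ± 0.50, with -2.12, -2.82, -2.29 and -3.22 in the dates. Sesn2, sestrin 2, a stress-induced inhibitor of mTORC1 signalling, was found in 13 of 17 V1 cells and in 6 of 16 S1 cells and differed by -2.93 ± 2.30. For Sod2 the pooled levels were closer, 125.3 CPM in S1 and 197.7 CPM in V1.

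Mafk, a small Maf transcription factor, had the same counts of cells as Sesn2 and differed by -2.88 ± 1.99. Fhl1, a LIM-domain protein on the X chromosome, was read in all 17 V1 cells, at up to 1483 CPM, and in 13 of 16 S1 cells, at up to 663 CPM, and differed by -2.78 ± 1.66. Its pooled levels were nearly equal, 283 CPM in S1 and 286 CPM in V1, while 3 S1 cells had no read. Fxyd6, a regulator of the sodium pump, differed by -2.69 ± 1.66 and was the least often read of the 10, in 9 of 17 V1 cells and in 5 of 16 S1 cells.

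Wrnip1, an ATPase that works at stalled replication forks, differed by -2.60 ± 1.41. Ttc33, a tetratricopeptide repeat protein, differed by -3.01 ± 1.15, and Fam81a by -2.69 ± 2.09. The exons of Ttc33 share 9.20% of their bases with Gm15938 and those of Wrnip1 8.98% with D930007J09Rik, both on the opposite strand. Reads of this protocol do not carry the strand, so those of the paired genes cannot be told apart there. Smaller overlaps touch Mafk (4.33%, Tmem184a), Elfn2 (3.28%, 1700041B01Rik) and Sirt7 (2.41%, Mafg). None of the 20 genes changed direction in the 19 alternatives run for each. They were chosen in these same cells for a large difference with 1 sign in every date. A kept direction was therefore largely fixed by the choice and is no separate support.

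**Figure D2:**
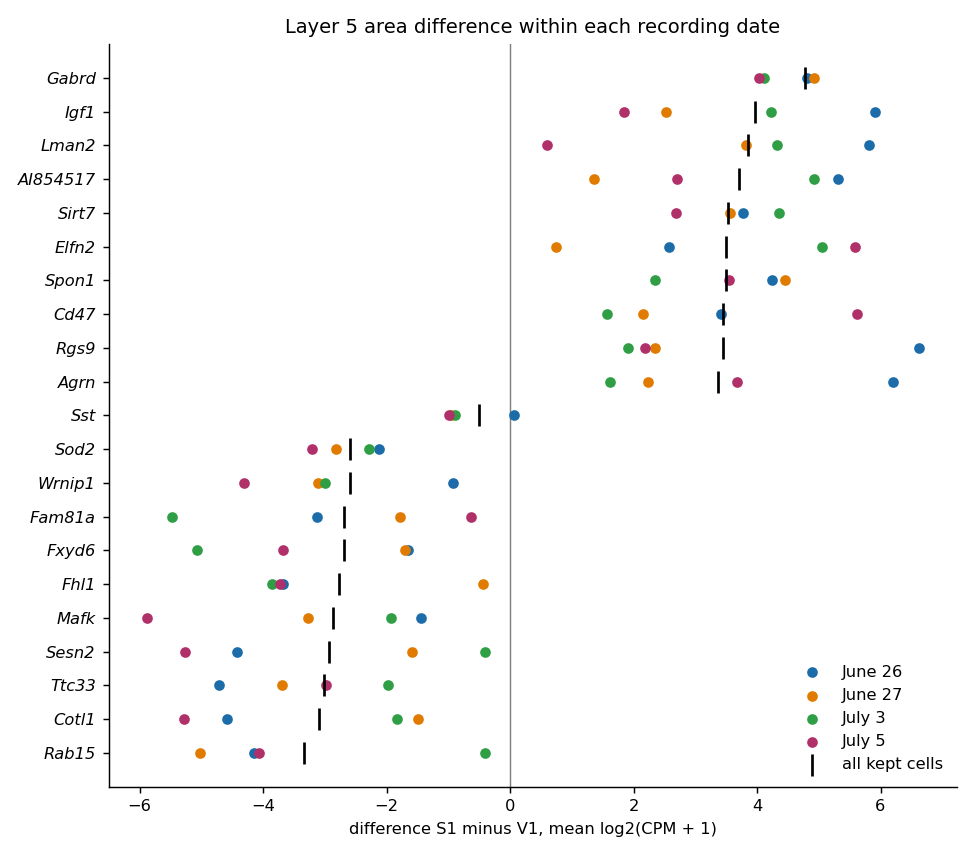
S1 minus V1 difference in mean log2(CPM + 1) of the 10 genes with the largest difference toward each area, and of Sst, in L5. Coloured points are the 4 dates and the black tick is the value over all kept cells. Gabrd, Sirt7 and Sod2 vary little between dates (SD 0.46, 0.69 and 0.50), while the Rab15 value of 3 July (-0.40) rests on 1 V1 cell and was -2.28 without it.

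On pooled reads the differences between areas were smaller for all 20 genes. The log2 ratio of pooled CPM was 3.78 for Gabrd and 2.29 for Igf1. For the other 8 genes toward S1 it lay between 0.92 and 1.69, and for the 10 genes toward V1 between -2.39 and -0.01.

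GABA-A receptors are pentamers, in which alpha and beta subunits combine with a gamma subunit at synapses or with the delta subunit outside them. Of 19 subunit genes, 8 passed the filter, and 3 were called toward S1 and 1 toward V1. Their median difference was 0.23, beside 0.24 for all genes, with 4 above 0 and 4 below, down to -1.08. Without the 2 V1 cells of few genes 2 were called toward S1 and 1 toward V1, and the median was 0.26. Gabrd was a marker given beforehand, so its call in the list is no separate finding. Gabrb2, a beta subunit, was found in all 16 S1 cells, at 98.5 to 2332 CPM, and in 13 of 17 V1 cells, at up to 679 CPM. It differed by 2.91 ± 1.52.

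Gabra3 (-0.57 ± 1.30) and Gabra4 (-0.05 ± 1.58), both alpha subunits, differed by less than their spread between dates. Per length, in deposited RPKM, the mean level of Gabrd in S1 (136.3) stood above that of Gabrb2 (66.3), while in V1 Gabrd (11.5) stood below Gabrb2 (26.3). Gabra6 and Gabrq were among the 5 subunit genes with no read in any kept L5 cell.

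In the insulin-like growth factor system, 5 of 17 genes passed the filter, 3 were called toward S1 and 0 toward V1. The median was 1.46, and the lowest value belonged to Irs2, an adaptor of the insulin receptor, with -0.65 ± 0.36. Irs2 was at 0.27 without the cells above 2000 CPM of glial and endothelial markers, and at 0 with the median over cells. Beside Igf1 the called genes were Insr, the insulin receptor, with 1.46 ± 0.62, and Igfbp3, a binding protein that carries the factor, with 1.96 ± 1.73. Without the 2 V1 cells of few genes Igf1 alone was called, at 3.72, and the list median was 0.94. Relative to genes of like length the median was 0.72. Igf1 was a marker given beforehand, so its place in the list is no separate finding. The receptor gene Igf1r did not pass the filter and had reads in 7 S1 and 5 V1 cells.

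Of 22 Rab GTPase and partner genes, 16 passed the filter, with a median difference of -0.20. Rab15 and Rab35, a GTPase of endosomal recycling that differed by -1.54 ± 1.62, were called toward V1, and 0 were called toward S1. Without the 2 V1 cells 5 were called toward V1 and the median was -0.86. The synaptic vesicle GTPase Rab3a was read in every cell, at 225 to 1472 CPM in S1 and 91.9 to 1328 CPM in V1, and differed by 0.38 ± 0.38. Rab3b differed by 0.48 ± 1.31.

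The 28 actin-binding genes went both ways. Of 20 that passed, 3 were called toward S1 and 2 toward V1, and the median was -0.094. Without the 2 V1 cells 1 was called toward S1 and 4 toward V1, and the median was -0.35. Cfl2, a cofilin that severs actin filaments, was called toward S1 with 1.71 ± 0.62, and Pfn1, the monomer-binding profilin, toward V1 with -1.96 ± 0.98. Pls3, an actin bundler, had a difference of 3.18 ± 2.75 without 1 sign in the dates. Of 20 genes of the early secretory pathway, 18 passed and Lman2 alone was called. Kdelr2, a receptor that returns proteins to the endoplasmic reticulum, differed by 1.47 ± 1.66.

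Of 31 genes used to name somatostatin types in a reference atlas, 30 were in the table and 1 passed the filter, so the list as a whole could not be compared. That gene was Crh, corticotropin-releasing hormone, read in 9 cells of each area, at up to 1142 CPM in S1 and 1407 CPM in V1, with a difference of 0.20 ± 2.36. Hpse, heparanase, had reads in 6 S1 and 4 V1 cells. Cbln4, a synapse-organizing cerebellin, had reads in 2 S1 and 5 V1 cells.

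Calb2, the calcium buffer calretinin, had reads in 0 of 16 S1 cells, which allows a share of up to 20.6%, and in 3 of 17 V1 cells (17.6%, 3.80 to 43.4%). Its pooled level was 20.9 CPM in V1 and under the limit of 0.155 CPM in S1. Chrna2, Ptgdr, Tac2, Tacr3 and Chodl were at 0 in every kept L5 cell.

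Calb1, the calcium buffer calbindin, was called toward V1. It was read in 8 of 16 S1 cells, with a median of 1.21 CPM, and in 11 of 17 V1 cells, with a median of 1176 CPM, and the difference was -2.46 ± 1.58. Of 15 calcium-binding genes, 10 passed the filter with a median of -0.25. Ncald, neurocalcin delta, differed by 1.33 ± 1.30, with no single sign in the dates.

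Among neuropeptide genes, 14 of 22 passed and 0 were called in either direction. Pdyn, the precursor of dynorphins, came closest, with reads in 12 of 16 S1 cells and in 6 of 17 V1 cells. Its medians were 437 CPM and 0, but its difference of 3.05 ± 3.76 changed sign between dates and the pooled levels were 443 CPM in S1 and 481 CPM in V1.

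The 17 sodium and calcium channel genes that passed had a median of 0.86, with 3 called toward S1 and 0 toward V1. Without the 2 V1 cells of few genes the median was 0.26, with 3 called toward S1 and 2 toward V1. The 20 potassium and HCN channel genes that passed had a median of 0.56, with 1 called toward S1 and 2 toward V1, but their date medians were 2.29, -0.38, 1.35 and -1.18 and had no common direction. Kcnip4, a calcium sensor that modulates A-type potassium channels, was found in 13 of 16 S1 cells and in 8 of 17 V1 cells, with medians of 98.6 CPM and 0, and differed by 3.11 ± 0.89. Cacna1g, the T-type calcium channel that supports burst firing, differed by 2.21 ± 0.80, although its pooled levels, 49.5 CPM in S1 and 52.6 CPM in V1, gave a log2 ratio of -0.085.

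Kcnab1, an accessory subunit of Kv1 channels, was called toward V1 with -1.50 ± 1.08 and pooled levels of 385 and 388 CPM, but with the median over cells it turned to 0.23. Cacna2d3, an accessory calcium channel subunit, differed by -1.43 ± 1.41.

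Of 15 glutamate receptor genes that passed, 4 were called toward S1 and 0 toward V1, and the median was 0.27. Without the 2 V1 cells of few genes 2 were called toward S1, and the median was -0.015. Grin2a, an NMDA receptor subunit, differed by 2.14 ± 1.36. In acetylcholine, serotonin and adrenergic receptors 7 of 27 genes passed and 0 were called. Lypd6, a modulator of nicotinic receptors, differed by 1.72 ± 2.26.

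Of 11 markers of other interneurons 2 passed, and Cnr1, the cannabinoid receptor, was called toward S1. It was read in 14 of 16 S1 cells and in 13 of 17 V1 cells, with medians of 211 and 26.4 CPM, and differed by 2.28 ± 1.04. Reln, the secreted protein reelin, was read in all 16 S1 cells and in 13 of 17 V1 cells and differed by 2.97 ± 1.84, with -0.25 on 27 June. Pvalb, the marker of fast-spiking basket cells, did not pass the filter and was singled out after its values were seen. It had reads in 7 of 16 S1 cells (43.8%, 19.8 to 70.1%) and in 1 of 17 V1 cells (5.88%, 0.149 to 28.7%), at no more than 115.7 and 9.29 CPM. All 7 S1 cells with Pvalb also had Gabrd, but so did 15 of 16 S1 cells in all, so this count shows no link.

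The translation and energy lists had medians below that of all genes. Of 33 cytosolic ribosomal protein genes that passed, 29 were lower in S1, 5 were called toward V1 and 0 toward S1, and the median was -0.55. By date the median was -1.62, 0.26, -0.70 and -0.63. Rpl7 differed by -1.90 ± 0.92. Of 70 nuclear genes of the respiratory chain that passed, 50 were lower in S1, with 3 called toward V1 and 2 toward S1 and a median of -0.42. Its date medians were -0.64, -0.0052, -0.11 and -1.04, and the share called toward V1 in all kept cells was near that of all genes. Without the 2 V1 cells of few genes, 9 of the 70 were called toward V1 and 0 toward S1, with a median of -0.54. At that setting 7.62% of all genes were called toward V1. The 34 proteasome genes that passed had a median of -0.05 and 2 called each way, with Psmd13, a lid subunit, at 1.74 ± 1.38 and Psma6, a core subunit, at -1.54 ± 1.15.

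Immediate early genes and stress genes showed no common direction. Of 14 immediate early genes that passed, 1 was called, Btg2, an antiproliferative factor, with 2.29 ± 2.08. Jun differed by -1.59, with 0.27 on 3 July and -5.31 on 5 July. Of 9 heat shock and stress genes that passed, 0 were called, and the median was -0.17.

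**Figure D3:**
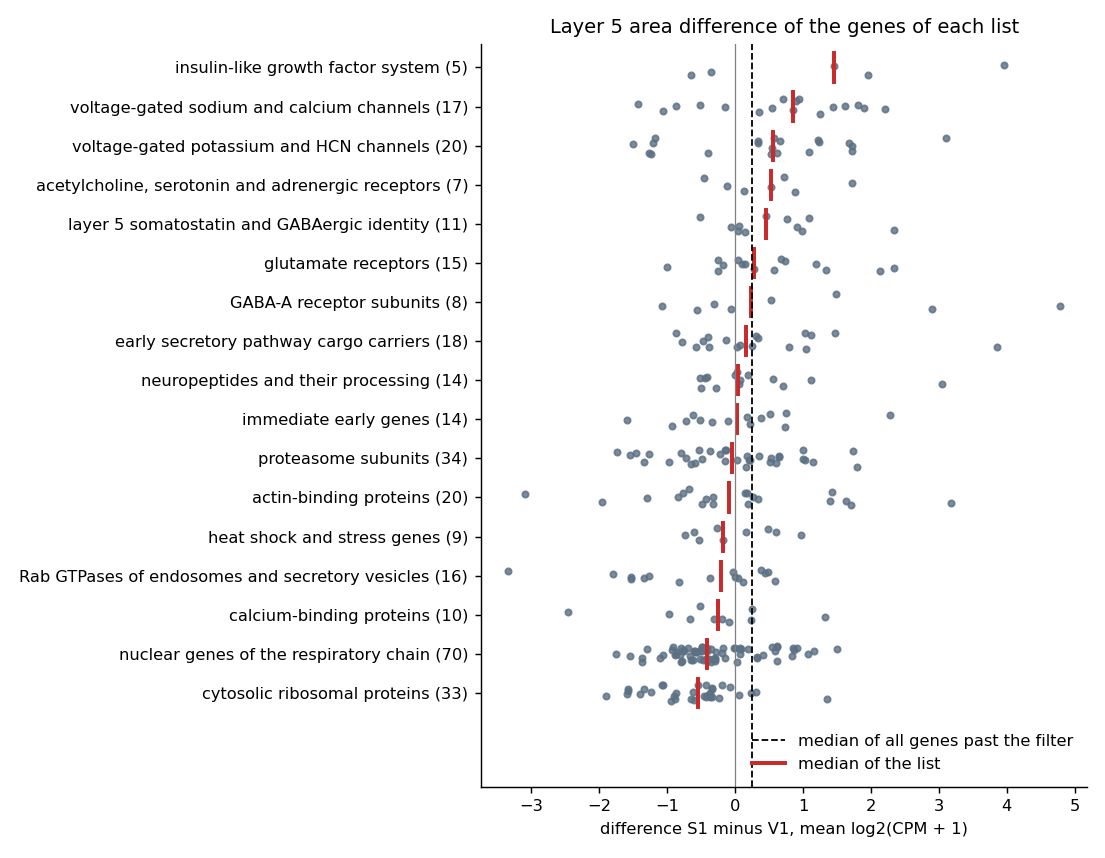
S1 minus V1 difference in mean log2(CPM + 1) of each gene past the filter, by gene list, for lists with 5 or more such genes (number in parentheses). Red bars are list medians and the dashed line is the median of all genes, 0.24. Ribosomal protein genes have the lowest median (-0.55) and the insulin-like growth factor system, with 5 genes, the highest (1.46). The latter list holds the marker Igf1, and its median was 0.94 without the V1 cells under 3000 detected genes.

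Gene length moved with the difference. Across 6364 genes with an annotated exon length, Spearman's rank correlation between length and difference was 0.22, over genes that share the same 33 cells. In 10 length classes of equal size, the class of the shortest genes, with 192 to 2029 exon bases, had a median difference of -0.18, and that of the longest, from 11089 bases, 0.74. The rank correlation was 0.18, 0.17, 0.04 and 0.13 in the 4 dates. The ribosomal protein genes had a median of 1830 exon bases and the sodium and calcium channel genes 9942.

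Relative to genes of the same length class, the sodium and calcium channels had a median of 0.16, the potassium channels 0.03, the ribosomal protein genes -0.47 and the respiratory chain genes -0.31. On that scale Gabrd stood at 4.66, Igf1 at 3.52 and Rab15 at -3.50. The part of length in the other differences was not tested.

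**Figure D4:**
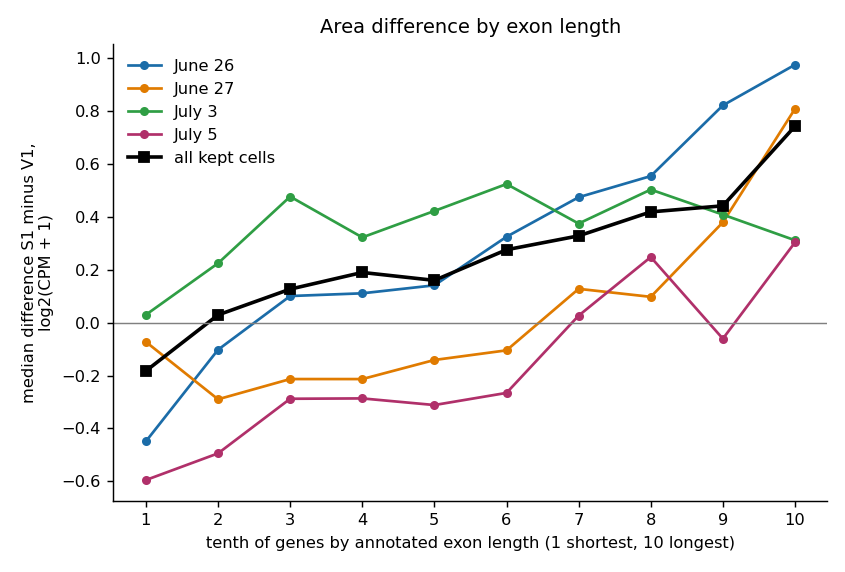
Median S1 minus V1 difference in log2(CPM + 1) of L5 genes in 10 classes of annotated exon length, from the shortest on the left. Coloured lines are the 4 dates and the black line is all kept cells. The black line rises from -0.18 to 0.74, and the line of 3 July is the flattest (rank correlation 0.04).

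Reads of other cell types were present in both areas. The summed level of the 10 oligodendrocyte markers ranged from 0 to 5642 CPM in S1 and from 0 to 3870 CPM in V1, with medians of 322 and 170.6 CPM, and 5 of them were at 0 in V1. Mbp, myelin basic protein, was called toward S1 at 2.66 ± 1.38, with pooled levels of 602 CPM in S1 and 170.1 CPM in V1. Without the 2 V1 cells of few genes its sign was not the same in every date. The 10 microglia markers had medians of 96.98 and 98.78 CPM, with maxima of 1561 CPM in S1 and 5243 CPM in V1. The 8 astrocyte markers had medians of 150.6 and 81.9 CPM, and of the 6 endothelial markers Cldn5, Flt1 and Ly6c1 were at 0 in all cells.

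In 4 S1 and 3 V1 cells the glial and endothelial markers together passed 2000 CPM. Without these cells, and with 3 dates left to compare, 846 genes were called toward S1 and 193 toward V1, and Gabrd and Rab15 kept their direction. Of the genes called in all cells, 66.7% toward S1 and 41.7% toward V1 were still called. The part of these reads in the other differences was not tested.

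In layer 4 the same 4 dates held 12 S1 and 7 V1 kept cells. Only 2 of these dates held 2 or more kept L4 cells of each area, and no spread over dates is given for L4. Gabrd was read in all 12 S1 cells and in 3 of 7 V1 cells there, and its difference was 4.98, beside 4.78 in L5. Igf1 had 2.38 in L4 beside 3.97, and Rab15 -3.63 beside -3.34. Lman2 differed by 0.53 in L4 and by 3.86 in L5, Cotl1 by -0.03 and -3.10, and Sod2 by -0.40 and -2.59. Sirt7 and AI854517 had the opposite sign in L4, with -2.22 and -1.87. The differences between the layers were not tested.

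**Figure D5:**
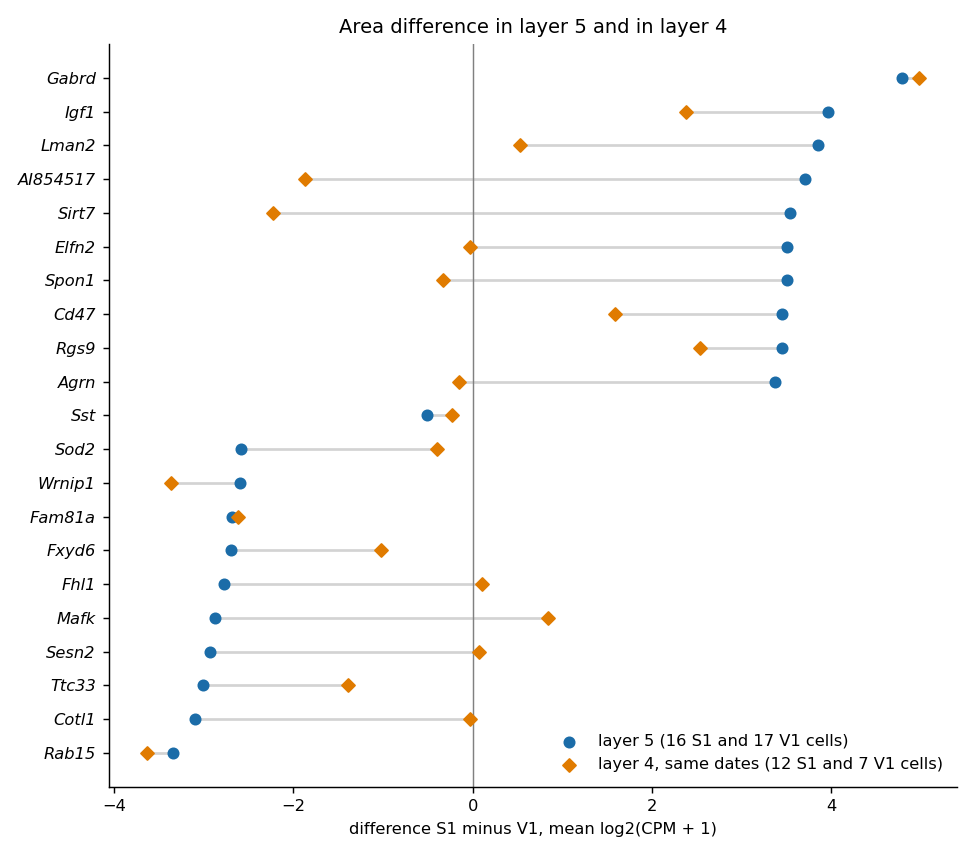
S1 minus V1 difference in mean log2(CPM + 1) in L5 (circles) and in the L4 cells of the same dates (diamonds) for the 10 genes with the largest L5 difference toward each area and Sst. Gabrd, Igf1 and Rab15 lie on the same side in both layers (4.98, 2.38 and -3.63 in L4), while Sirt7 and AI854517 do not (-2.22 and -1.87 in L4).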

How the data were processed

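RNA of single SOM+ neurons from layers 4 and 5 of both areas was read by Patch-seq. Per the submitters' processing notes, reads were made with bcl2fastq 2.20 and aligned to mm10 with STAR 2.4.2a. The authors deposited read counts per gene without normalization. The deposited RPKM values, which the authors scaled by depth and transcript length, served as an alternative and for levels compared between genes. The tool that made the counts is not given in the sources used here. Table lines with one symbol were added up, leaving 23998 symbols. Of the kept L5 cells, 0 pairs held identical values.

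Group and layer came from the labels. Counts were scaled to each cell's total (CPM) and expressed as log2(CPM + 1), with a pseudocount of 1. Genes needed at least 32 counts in at least 10 kept L5 cells. With 1 sample per area no test was run across cells. The 4 dates each had 2 or more cells per area. Named genes are the 10 largest differences each way among genes with 1 sign in all of them, the 4 markers (Sst, Gabrd, Igf1, Rab15), the 2 largest each way in each of 25 lists, and any member of the somatostatin type, GABA-A, IGF and Rab lists. Gad1, Lhx6, Slc17a7 and Pvalb were named after their values were seen. Some genes of these lists are not reported here. The members and the lists were chosen with earlier results of these data known. Shares have Clopper-Pearson and pooled counts Poisson intervals at 95%, and a count of 0 allows 3 counts. Thinning drew 250000 reads without replacement with seed 1. The functions were tested on simulated data. GENCODE release M21 (GRCm38) gave coordinates and exon lengths, the latter for 99.4% of the genes that passed.

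Alternatives changed the pseudocount, gene and cell filters, scaling, unit, averaging, and left out each date and each cell. Library sizes by TMM came from edgeR 4.0.16 in R 4.3.3. All else ran in Python 3.11.15 with SciPy 1.17.1, pandas 2.3.3 and NumPy 2.4.6, and figures were drawn with matplotlib 3.10.9.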

Additional observations from a re-analysis of the deposited data

Results flagged for a closer look

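Spon1 lay toward S1 in L5 in each of the 4 dates, with a difference of 3.50, and toward V1 in L4 in each of the 5 dates with at least 2 L4 cells of each area, with -0.40 over all kept L4 cells. Of these 5 dates 2 also held L5 cells, so the layers were mostly compared on different dates. The opposite direction in the layers drew attention to it, and the difference between layers was not tested.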

How the results depend on the processing

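With 1 sample per area the SD over 4 dates is the only spread available, and dates may share a mouse. Leaving out 1 date asks for 1 sign in fewer dates, so more genes are called by construction. The same holds for the limit on glial and endothelial markers, which left 3 dates to compare. Of the 6402 genes, the share called toward S1, 8.54%, became 4.50% with a pseudocount of 10 CPM, 4.78% with the median over cells, 3.42% on pooled CPM, 5.55% with at least 3000 detected genes, and 13.2% without cells above 2000 CPM of glial and endothelial markers. The share called toward V1, 4.15%, became 1.47%, 2.09%, 2.22% and 7.62% under the first 4 of these settings and 3.01% under the last. When 1 date or 1 cell was left out, the shares ranged from 6.59 to 15.04% toward S1 and from 2.95 to 8.90% toward V1. The median difference of 0.24 became -0.072 with at least 3000 detected genes, where 15 V1 and 16 S1 cells remained, and ranged from 0.082 to 0.35 when 1 date or 1 cell was left out. The calls toward S1 were 67.3% of all calls, and 53.8% with differences centred on the median gene. Kcnab1 reversed to 0.23 with the median over cells, and Cacna1g to -0.085 on pooled CPM. The cause was not tested. Centring by length class and the limit on glial markers were chosen after seeing the data. With each date as its own comparison, as the mean of within-date differences, the shares were 8.28% and 4.80%. The replicate numbers only name cells and pair nothing.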
